A study of Canis lupus familiaris with 4 samples.

Results

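The regions described here are the distal ends of the 38 numbered dog chromosomes. They were taken as all ATAC-seq peaks whose midpoint lies within the last 3 Mb of a chromosome, counted back from the end of its outermost peak. By that rule 3200 of the 59081 peaks in the series were members, and all 3200 entered the test. The ends cover 114 Mb, or 5.19% of the length between the outermost peaks of the numbered chromosomes, and hold 5.55% of the peaks there (28.1 peaks per Mb against 26.3 over the whole length). The rule uses positions alone and no measured level. The length of each chromosome was not used, so a chromosome whose outermost peak lies far from its physical tip is measured from that peak.

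The cells were MDCKII (Madine Darby canine kidney type II), a wild-type epithelial line of dog kidney. The mature state (libraries A and B) is a monolayer after 7 d of growth, and the reseeded state (again libraries A and B) is such a monolayer that was detached and plated anew 2 h earlier, so n = 2 for each. The series concerns infoldings of the nuclear envelope and where chromatin lies in the nucleus, and the comparison asks how accessibility differs between these states. The labels do not tell whether A and B of a state were grown separately, and p-values therefore rest on a spread between libraries that may be technical. The leading code of the sample names follows the group, and a batch that went with it cannot be told apart from reseeding.

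ATAC-seq reads out where the transposase Tn5 can reach DNA, which is mostly at promoters, enhancers and other sites that nucleosomes leave free. Dog autosomes are acrocentric, and the centromere is taken here to lie close to the start of the numbered sequence. The ends described here are thus taken as those on the telomere side of the long arm. The orientation of each chromosome in the build was not checked. Chromosome regions near telomeres are often rich in genes and in G and C, and can carry repeats and duplicated segments to which short reads are hard to assign. In many cell types telomeres and centromeres are not placed at random in the nucleus, and some touch the nuclear envelope. Peaks were not placed on genes, and markers of the cell type were not checked, because the gene annotation used here describes another assembly.

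Mature A and B had 8759513 and 6253706 counts in peaks, and reseeded A and B had 16906566 and 24015663. The ends held 571348, 430064, 906326 and 1285605 of these counts in that order. A floor of 3 counts equals 0.348 and 0.486 CPM in mature A and B and 0.175 and 0.123 CPM in reseeded A and B, where CPM is counts scaled to a common library total (TMM factors of edgeR). Over the end peaks, Pearson's r of log2(CPM + 0.5) was 0.972 for the mature pair and 0.991 for the reseeded pair, against 0.357 to 0.409 between groups. By chi-square, the mature pair differed more at the ends than elsewhere. The chi-square of its counts per degree of freedom was 2.74 over the end peaks and 1.64 over other peaks of the numbered chromosomes. The reseeded pair gave 1.28 and 1.09. By Pearson's r the mature pair was about as close over those other peaks (0.975) as at the ends. The last 100 kb of chromosome 7 alone summed to 5489 and 7610 CPM in mature A and B. All end peaks together summed to 66268 and 69661 CPM. How much of the chi-square came from that tip was not tested.

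Accessibility at the chromosome ends was lower after reseeding, relative to the other peaks of the genome. Of the counts on numbered chromosomes, the last 3 Mb took 6.68% in mature A and 7.05% in mature B, but 5.47% in reseeded A and 5.46% in reseeded B. The groups did not overlap, and the reseeded mean (5.46% ± 0.00459, SD, n = 2) lay 1.40 percentage points under the mature mean (6.87% ± 0.262, SD, n = 2). The two-sided exact permutation test gave p = 0.333, the smallest that 2 libraries against 2 allow. Leaving out chromosome 7, whose tip held the strongest end peaks, the shares were 6.13% and 6.29% in mature and 5.24% and 5.23% in reseeded libraries, a difference of -0.977 points. All these values are shares, so a rise or fall common to all peaks would not show in them.

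Peak by peak, losses outnumbered gains at the ends, whereas over the whole genome large gains were the more frequent. The median log2 fold (reseeded over mature) was -0.32 over the 3200 end peaks, with quartiles of -0.94 and 0.54, against -0.01 over all tested peaks and 0.03 over the other peaks of numbered chromosomes. The quasi-likelihood test of edgeR called 2696 end peaks (84.2%) at an adjusted p under 0.05, against 84.1% of all tested peaks. Of them 971 (30.3%) were higher after reseeding, against 42.3% genome-wide, and 1725 (53.9%) were lower, against 41.8%. The share of peaks that differed was thus near the background, and the split by direction was not.

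Gains of 2-fold or more were called at 546 end peaks (17.1%), against 26.9% of all tested peaks, and losses of that size at 743 (23.2%), against 15.0%. At a fold of 4 or more, 202 (6.31%) were higher, against 10.1%, and 325 (10.2%) were lower, against 6.04%. With loess offsets, a scaling that follows the level of a peak, gains of 2-fold or more numbered 369 and losses 770. The shares over all peaks under that scaling are not given here. Peaks whose groups did not overlap in CPM numbered 2921 (91.3%), against 91.5% of all peaks. Taken for each mature and reseeded library separately, the difference between the median of end peaks and that of other numbered-chromosome peaks was -0.34 (A and A), -0.32 (mature B and reseeded A), -0.34 (mature A and reseeded B) and -0.33 (B and B). Each of the 4 combinations thus gave a median below that of the other peaks.

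**Figure D1:**
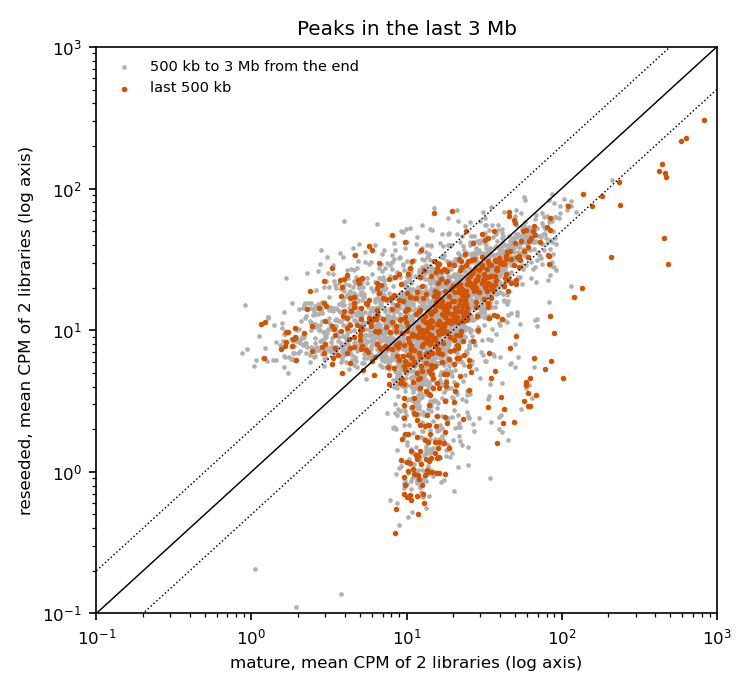
Each point is a peak of the last 3 Mb, with its mean CPM in 2 mature libraries on the horizontal log axis and in 2 reseeded libraries on the vertical log axis; orange points lie in the last 500 kb. More points lie below the diagonal than above it (1725 called lower, 971 called higher), and the points of highest level in both groups are orange and below it.

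The ends differed from other peaks in their mature level more than in their reseeded level. The median end peak had 14.3 and 15.3 CPM in mature A and B and 12.4 and 12.3 CPM in reseeded A and B. Other numbered-chromosome peaks had medians of 12.2 and 12.5 CPM in mature and 12.8 CPM in each reseeded library. In mature cells, 11.5% of end peaks lay under 5 CPM, against 20.2% of the others. In reseeded cells the order was the opposite, with 13.1% of end peaks and 7.66% of the others under 5 CPM.

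The difference was found at each level of signal. Tested numbered-chromosome peaks were divided into 4 equal classes by mean CPM (bounds of 8.29, 12.6 and 20.8 CPM). In the lowest class 34.2% of end peaks were at least 2-fold lower, against 16.2% of other peaks. In the highest class the shares were 17.3% and 9.43%. At least 2-fold gains made up 30.4% of the lowest class at the ends against 49.3% elsewhere, and 7.61% against 11.4% of the highest.

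Crowding by neighbouring peaks also went with direction, and the ends lay below other peaks of like crowding. Peaks were classed by the number of neighbours within 500 kb on either side, with bounds at 34 and 60 neighbours. In the sparse class the 1123 end peaks had a median log2 fold of -0.11, against 0.38 for 18541 other peaks. In the middle class the 984 end peaks gave -0.35 against 0.13, and in the dense class the 1093 end peaks gave -0.43 against -0.29. The gap to other peaks was thus widest in the sparse class and narrowest in the dense class. A window at the tip of a chromosome has neighbours on 1 side only, so crowding is undercounted there.

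The opposite ends of the chromosomes, the first 3 Mb counted from the first peak of each, leaned the same way, with a median closer to 0. Their 3323 peaks had a median log2 fold of -0.24, with gains of 2-fold or more at 686 (20.6%) and losses of that size at 688 (20.7%). Their share of counts was 6.20% and 6.28% in mature and 5.52% and 5.54% in reseeded libraries, a difference of -0.709 points. Losses of 4-fold or more were about as frequent there, at 332 peaks (9.99%), as at the distal ends (10.2%). The difference between the 2 sets of ends was not tested.

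By distance, the loss was greatest in the outermost 500 kb. Counts there, summed over all 38 chromosomes (640 peaks), were 17647 and 20688 CPM in mature A and B and 11111 and 11066 CPM in reseeded A and B. The groups did not overlap, and mature B lay above mature A by 0.23 on the log2 scale, against 0.03 in the bin that follows. The log2 fold of the sum was -0.79 (SE 0.112, adjusted p = 0.00687 over all 213 distance bins). The call was lost without reseeded A (adjusted p = 0.0531) or without reseeded B (adjusted p = 0.0547), and without chromosome 7 the fold was -0.43 (adjusted p = 9.53e-05).

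All 6 bins of the last 3 Mb were called lower, against 38.5% of the distance bins of the whole length called lower and 42.7% called higher. From 500 kb to 1 Mb the sums were 8288 and 8474 CPM in mature and 6980 and 6995 CPM in reseeded libraries, a log2 fold of -0.26 (SE 0.005, adjusted p = 0.000141). From 1 to 1.5 Mb they were 11122 and 11534 CPM against 8848 and 8876 CPM (log2 fold -0.35, SE 0.008, adjusted p = 0.000171). In both bins the reseeded libraries were close together and under both mature libraries.

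Of the 3 bins further in, the first 2 differed least. The log2 fold was -0.15 from 1.5 to 2 Mb, -0.15 from 2 to 2.5 Mb and -0.26 from 2.5 to 3 Mb. The bin from 1.5 to 2 Mb rested mostly on chromosome 8, without which its fold was -0.05. Chromosome 20 carried part of 2 other bins, since without it the fold was -0.17 from 500 kb to 1 Mb and -0.09 from 2 to 2.5 Mb. Bins sum many peaks of unequal strength, and the SE of a bin did not simply follow its level or the spread of its mature libraries. From 2500 to 3000 kb the SE was 0.009, with a mature mean of 11401 CPM (SD 250.6). From 7500 to 8000 kb the SE was 0.071, with a mature mean of 11172 CPM (SD 23.36). The values of each library are therefore the more direct guide.

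The loss did not stop at 3 Mb. The 4 bins from 3 to 5 Mb were also called lower, with log2 folds of -0.22 to -0.05. In the 30 bins from 5 to 20 Mb the folds ran from -0.14 to 0.10, with 10 called higher and 14 lower. The share of peaks at least 2-fold lower was 31.6% in the outermost bin and 16.8% to 26.2% in the other bins of the last 3 Mb, against 9.63% to 19.3% from 5 to 20 Mb. The share at least 2-fold higher was 14.4% in the outermost bin and 20.9% to 32.5% from 5 to 20 Mb.

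**Figure D2:**
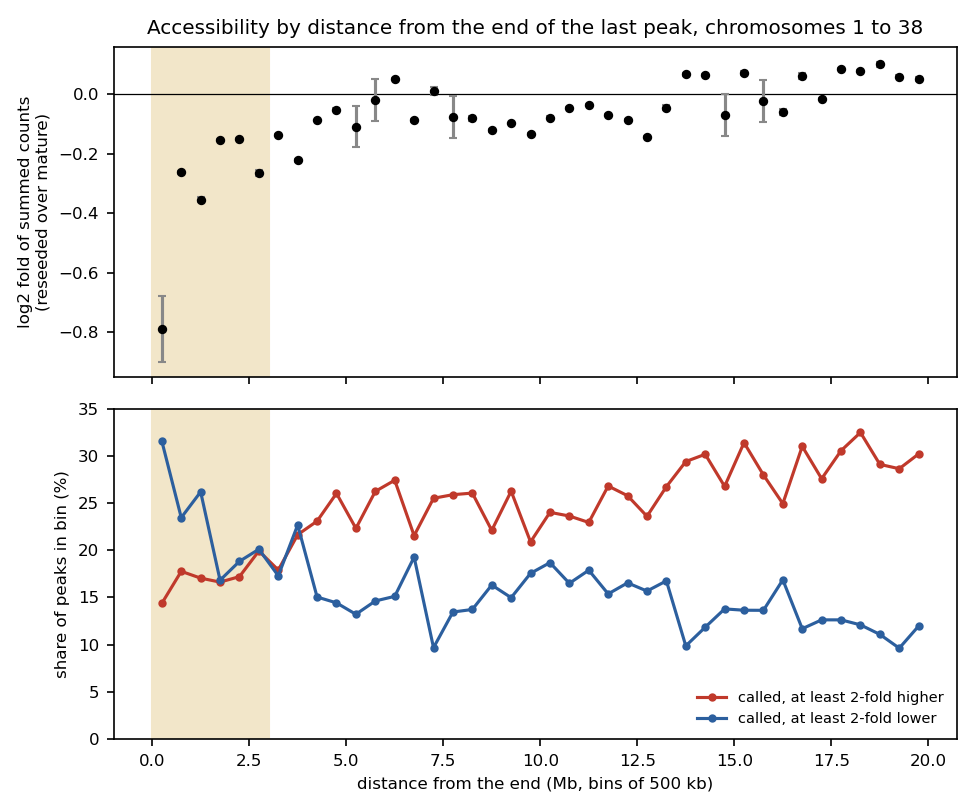
Above, the log2 fold of counts summed over chromosomes 1 to 38 in bins of 500 kb, against distance from the end in Mb, with bars of 1 SE; below, the share of peaks in each bin that were called and at least 2-fold higher (red) or lower (blue). The shaded last 3 Mb holds the lowest fold (-0.79 in the outermost bin), and the share of 2-fold losses falls from 31.6% there to no more than 19.3% beyond 5 Mb.

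At the border of the region the values did not change abruptly. The 5 members farthest from an end had log2 folds between -1.70 (chr19:50740700-50741200) and 0.00 (chr20:55083234-55083734). The 5 peaks just outside had folds between -1.08 (chr8:71064282-71064782) and 1.42 (chr14:57963784-57964284).

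Within the outermost bin, the share of strong losses was highest in the last 100 kb, a description over peaks with no test. Of 211 peaks there, 83 (39.3%) had lost 2-fold or more, 60 (28.4%) of them 4-fold or more, and 27 had gained 2-fold or more. From 100 to 500 kb, 119 of 429 peaks (27.7%) had lost 2-fold or more and 51 (11.9%) 4-fold or more. From 500 kb to 3 Mb, 541 of 2560 (21.1%) and 214 (8.36%) had. Chromosome 7 supplied 34 of the 211 peaks, and without it 52 of 177 (29.4%) had lost 2-fold or more and 39 (22.0%) 4-fold or more. With the outermost peak of each chromosome set aside as well, 31 of 140 (22.1%) and 21 (15.0%) had. That share of 2-fold losses lay under the 27.7% found from 100 to 500 kb, while that of 4-fold losses lay above the 11.9%. The median log2 ratio of mature B to mature A was 0.155 in the last 100 kb and 0.071 from 100 to 500 kb.

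The tip alone did not make up the difference. Without the last 100 kb, the 2989 end peaks that are left had a median log2 fold of -0.31. Without chromosome 7 the median was -0.32 over 3009 peaks, with 512 gains and 684 losses of 2-fold or more.

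The outermost peak of a chromosome was lower after reseeding on most chromosomes. Of the 38 outermost peaks 30 were called lower, 5 were called higher and 3 were not called, against 41.8% and 42.3% of all peaks. At least 2-fold losses numbered 22 and gains 3, and 18 peaks were at least 4-fold lower. The median log2 fold was -1.61. The next peak inwards had a median of -0.62, with 25 lower, 9 higher and 13 at least 2-fold lower. The third from the end had a median of -0.31, with 21 lower, 8 higher and 12 at least 2-fold lower. The losses thus thinned out over the outermost 3 peaks.

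Most of the outermost peaks that fell 4-fold or more were modest peaks in mature cells and weak ones after reseeding. In these 18 peaks counts ran from 51 to 1380 (median 81.5) in mature A and from 46 to 1593 (median 84.5) in mature B. In reseeded libraries they ran from 5 to 571 (median 14.5) in A and from 11 to 797 (median 26.5) in B, although those libraries were deeper. Their median level was 11.3 CPM in mature and 0.977 CPM in reseeded cells, and the mature mean was under 13 CPM in 13 of the 18. Mature B was above mature A in 16 of the 18, with a median log2 ratio of 0.56, against 0.06 for the other 20 outermost peaks. What part that difference between the mature libraries has in the result was not tested.

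The 3 lowest outermost folds belonged to chromosomes 35, 38 and 6. The peak at chr35:26512922-26513422 had 9.39 and 7.45 CPM in mature A and B and 0.292 and 0.451 CPM in reseeded A and B, a log2 fold of -4.44 (SE 0.418, edgeR adjusted p = 1.32e-11). The peak at chr38:23908987-23909487 had 11.9 and 13.9 CPM against 0.467 and 0.738 CPM, a log2 fold of -4.34 (SE 0.313). At chr6:77572588-77573088 the mature libraries were further apart, at 9.28 and 16.4 CPM, against 0.525 and 0.861 CPM, a log2 fold of -4.10 (SE 0.335). In each the groups lay far apart, and loess offsets gave larger losses of -8.00, -7.00 and -6.64.

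The strongest outermost peaks that fell 4-fold or more were on chromosomes 31 and 22. At chr31:39895397-39895897 the level was 160 and 258 CPM in mature A and B and 33.3 and 32.7 CPM in reseeded A and B, a log2 fold of -2.64. At chr22:61413449-61413949 it was 66.0 and 103 CPM against 12.9 and 12.1 CPM, a log2 fold of -2.72. Both show the same gap between mature A and B, and both reseeded libraries under either. These 2 peaks were chosen after their values were seen.

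The 3 highest outermost folds were gains from a low mature level. The peak at chr12:72490266-72490766 had 3.71 and 3.08 CPM in mature and 9.40 and 11.0 CPM in reseeded libraries, a log2 fold of 1.58 (SE 0.204, edgeR adjusted p = 1.59e-08). The peak at chr30:40194316-40194816 had 3.36 and 3.56 CPM against 8.70 and 9.68 CPM, a log2 fold of 1.42. The peak at chr5:88855515-88856015 had 4.64 and 4.05 CPM against 9.98 and 11.9 CPM, a log2 fold of 1.33. With loess offsets all 3 gains were much smaller, at 0.55 (adjusted p = 0.0199), 0.29 (adjusted p = 0.237, not called) and 0.74 (adjusted p = 0.000536) in the same order. The peak of chromosome 5 is the only peak in the last 3 Mb of chromosome 5, and its nearest inner neighbour lies 3444 kb away.

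**Figure D3:**
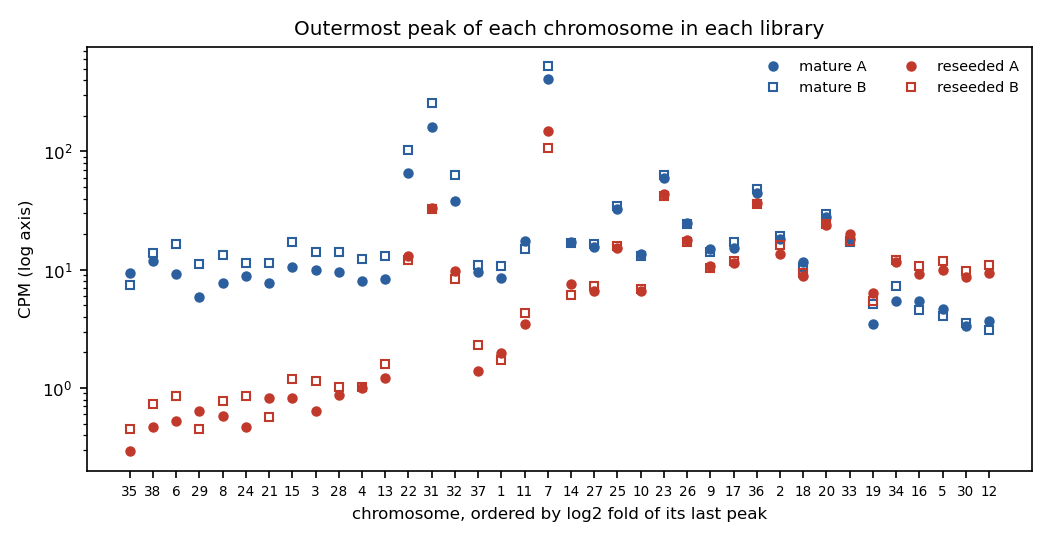
CPM (log axis) of the outermost peak of each of the 38 chromosomes in each library, ordered by log2 fold; blue marks are mature and red marks reseeded, circles library A and open squares library B. On the left, for the 18 peaks at least 4-fold lower, reseeded marks lie well under mature marks, most of them near 1 CPM; on the right the order is reversed for 5 called peaks.

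The first peaks of the chromosomes, taken as the centromere side, showed losses as well. Of 38, 25 were called lower and 8 higher, 18 had lost 2-fold or more (16 of them 4-fold or more) and 7 had gained as much, with a median log2 fold of -0.81.

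By chromosome, the summed counts of the last 3 Mb were lower on most chromosomes and by very different amounts. Of 36 ends with at least 5 peaks, 22 were called lower (against 43.0% of all 751 windows of 3 Mb) and 4 higher (against 46.2%), and 10 were not called. By library size alone the median fold of all 3 Mb windows moved from 0.02 to 0.13, and 20 ends were called lower and 12 higher, so 62.5% of called ends were lower in place of 84.6%. Chromosomes 10 and 33, called lower, had folds above 0 under that scaling. Chromosome 10 was then called higher (0.05, edgeR adjusted p = 0.0301), and chromosome 33 was not called (0.01, adjusted p = 0.449). Chromosomes 5 and 16, with 1 and 2 end peaks, were not tested. All 3 of their peaks were called higher, the 2 of chromosome 16 with log2 folds of 1.00 (chr16:58964532-58965032) and 0.94 (chr16:56603741-56604241).

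Crowded ends were nearly all lower, and crowded peaks leaned lower elsewhere too. In the dense class of peaks 60.9% were called lower at these ends, against 61.5% in the first 3 Mb. Among all other numbered-chromosome peaks of that class 52.3% were. Of 14 ends with at least 100 peaks 12 were called lower and 1 higher, and of 22 smaller tested ends 10 were called lower and 3 higher, and the difference between the classes was not tested. Across the 36 ends, Pearson's r between the log2 fold and the number of peaks was -0.457 and Spearman's rho -0.417, a description over chromosomes that share the same 4 libraries. Of 33 chromosomes with at least 20 end peaks, the median fold of the end lay below that of the rest of the same chromosome on 26 and above it on 7.

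**Figure D4:**
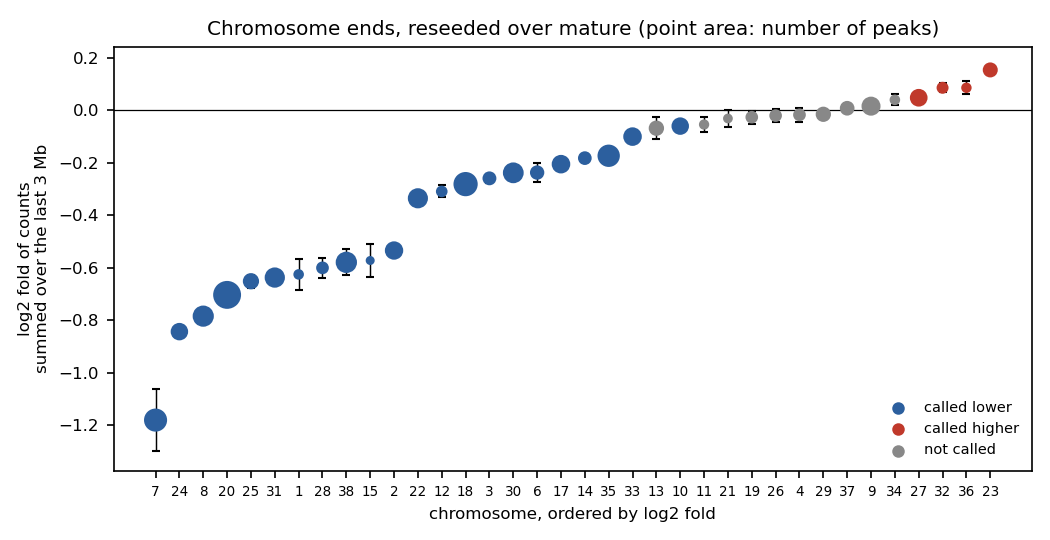
Log2 fold of counts summed over the last 3 Mb for 36 chromosomes, ordered by fold, with bars of 1 SE and point area proportional to the number of peaks; blue points were called lower, red higher and grey not called. With TMM factors 22 ends lie below 0 as called losses down to -1.18 (chromosome 7) and 4 above it up to 0.15 (chromosome 23). By library size alone the split is 20 and 12. The called losses of chromosomes 10 and 33 then move above 0, and chromosome 10 is called higher.

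Chromosome 7 had the largest loss, and its last 100 kb held it. Its end (191 peaks from position 78015246 to 80974343) summed to 8196 and 10598 CPM in mature A and B and to 4135 and 4148 CPM in reseeded A and B. Both reseeded values lay under both mature values, which were themselves 0.37 apart on the log2 scale. The log2 fold was -1.18 (SE 0.119, edgeR adjusted p = 0.000326), and no other end fell by 2-fold or more.

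In its last 100 kb, 34 peaks between 80921245 and 80974343 summed to 5489 and 7610 CPM in mature and 1783 and 1809 CPM in reseeded libraries. Their median log2 fold was -3.34, and 31 had lost 2-fold or more, 21 of them 4-fold or more, while 1 had gained 2-fold or more. The remaining 157 peaks of that end summed to 2557 and 2655 CPM in mature and 2459 and 2427 CPM in reseeded libraries. Their median log2 fold was -0.18, with 28 losses and 33 gains of 2-fold or more. Past the tip, the end of chromosome 7 thus held gains and losses in near equal numbers.

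The 5 strongest peaks of all chromosome ends lay within 6.14 kb of the end of chromosome 7 and were lowered without closing. The strongest, chr7:80967949-80968449, had 738 and 929 CPM in mature A and B and 285 and 327 CPM in reseeded A and B, a log2 fold of -1.44 (SE 0.082, edgeR adjusted p = 3.49e-17). The outermost, chr7:80973843-80974343, had 409 and 525 CPM against 149 and 107 CPM, a log2 fold of -1.87 (SE 0.098). The other 3 had folds of -1.47 (chr7:80968671-80969171), -1.43 (chr7:80969324-80969824) and -1.59 (chr7:80972630-80973130). In all 5 the groups did not overlap, and reseeded levels stayed above 100 CPM. With loess offsets the 5 folds were smaller, from -1.20 at the outermost to -0.56 at the strongest, and all were still called.

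Just inside them lay an unbroken run of peaks that did fall to low levels. From 80946834 to 80963745 on chromosome 7, a stretch of 16.9 kb that ends 10.8 kb from the outermost position, 21 neighbouring peaks were each at least 4-fold lower. Their median level was 49.1 CPM in mature A and 75.0 CPM in mature B, but 3.85 and 4.39 CPM in reseeded A and B, and their median log2 fold was -3.80. The median log2 ratio of mature B to mature A over these peaks was 0.67.

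Such runs (at least 5 neighbours no more than 10 kb apart, all at least 4-fold lower) numbered 2 at the chromosome ends of 40 in all. The other lay on chromosome 8 from 72909163 to 72916803, 1152 kb from the end, with 5 peaks whose medians were 13.2 and 15.2 CPM in mature and 0.875 and 1.11 CPM in reseeded libraries. The median over these peaks of the log2 ratio of mature B to mature A was 0.70. Together the runs held 26 peaks, 8% of the end peaks that were at least 4-fold lower, so most such losses were not in runs. Most were outside runs genome-wide as well, where runs held 338 of the 3566 peaks at least 4-fold lower. No run of 4-fold gains was found at the ends or elsewhere. Without the 26 peaks the median log2 fold of the end peaks was -0.31.

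Chromosomes 24, 8, 20 and 25 followed chromosome 7, and their losses were not confined to the tip. On chromosome 24 all end peaks lay between 46121441 and 47694399, so the inner part of its last 3 Mb held none. The end of chromosome 24 (97 peaks) summed to 2297 and 2386 CPM in mature and 1301 and 1305 CPM in reseeded libraries, a log2 fold of -0.84 (SE 0.020, edgeR adjusted p = 8.94e-06). Of its peaks 32 were 2-fold or more lower and 4 were 2-fold or more higher, and its 4 tested windows of 500 kb were all called lower (-1.03 to -0.29). The end of chromosome 25 (80 peaks) summed to 1499 and 1571 CPM against 975 and 977 CPM, a log2 fold of -0.65 (SE 0.024), with 22 peaks at least 2-fold lower and 3 higher. In both the mature libraries were close to each other and far above the reseeded ones.

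The end of chromosome 20 was the most crowded, with 295 peaks or 98.3 per Mb, and losses there were mild and widespread. It summed to 7753 and 7888 CPM in mature and 4839 and 4764 CPM in reseeded libraries, a log2 fold of -0.70 (SE 0.015, edgeR adjusted p = 8.94e-06). Of its peaks 227 were called lower and 27 higher, 95 were 2-fold or more lower and 7 were 2-fold or more higher. Its 6 windows of 500 kb were all called lower, by -0.96 to -0.36. The end median was -0.70, against -0.24 over the rest of the chromosome.

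Chromosome 8 combined a closed tip with a broad loss. Its end (156 peaks) summed to 3351 and 3569 CPM in mature and 2010 and 2001 CPM in reseeded libraries, a log2 fold of -0.79 (SE 0.030), and 71 peaks were 2-fold or more lower and 9 were 2-fold or more higher. The last 500 kb held 7 peaks that summed to 68.8 and 115 CPM in mature and 7.35 and 9.40 CPM in reseeded libraries, a log2 fold of -3.40 (SE 0.259, edgeR adjusted p = 9.3e-06), the lowest of any window of 500 kb at the chromosome ends. Further in, windows starting at 1, 1.5 and 2 Mb gave -1.08, -1.04 and -0.83, and the innermost gave -0.13.

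Chromosomes 31 and 38 also showed lower ends with uneven windows. The 6 windows of chromosome 31 were all called lower, from -1.70 (SE 0.149) in the last 500 kb, where 8 peaks summed to 259 and 374 CPM in mature and 97.6 and 93.8 CPM in reseeded libraries, to -0.36 in the innermost. On chromosome 38 the innermost window (65 peaks) fell from 1519 and 1846 CPM to 926 and 914 CPM, a log2 fold of -0.87. The window from 500 kb to 1 Mb of chromosome 38, with 5 peaks, rose from 39.8 and 38.3 CPM to 77.0 and 76.0 CPM, a log2 fold of 0.96.

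Over chromosomes, losses were most regular in the outermost window. Of 32 windows tested in the last 500 kb, 25 were called lower (against 41.8% of all windows of 500 kb) and 3 higher (against 43.9%), with 4 at least 2-fold lower, none at least 2-fold higher and a median log2 fold of -0.45. From 500 kb to 1 Mb, 15 of 25 were lower and 7 higher (median -0.15), and from 1 to 1.5 Mb 19 of 27 were lower and 5 higher (median -0.27). In the 3 windows further in, 12 were lower in each, of 23, 22 and 21 tested, and 9, 8 and 7 were higher.

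**Figure D5:**
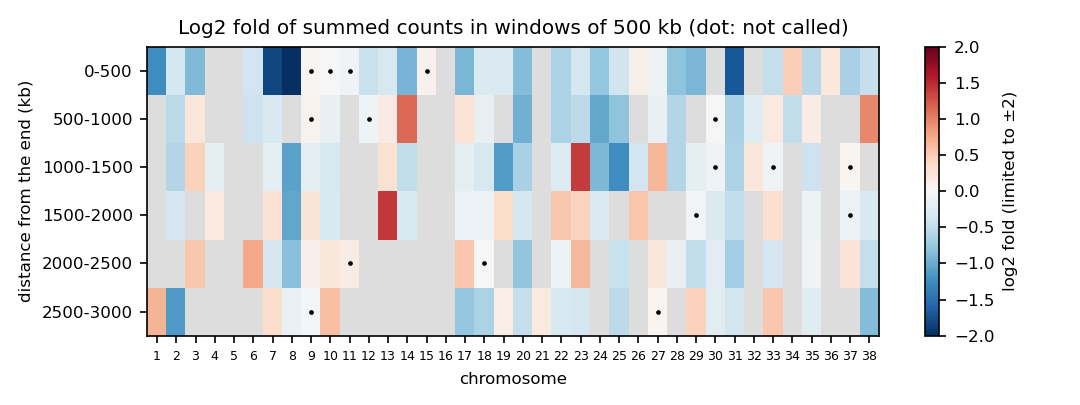
Log2 fold of summed counts (colour, limited to 2 in either direction) for windows of 500 kb by chromosome (horizontal) and distance from the end in kb (vertical); blue is lower and red higher after reseeding with TMM factors, dots mark windows not called and grey cells hold under 5 peaks. The top row is mostly blue (25 of 32 called lower, 3 higher; 5 higher by library size alone), chromosomes 20 and 31 are blue throughout, and red cells on chromosomes 13, 14, 23 and 38 lie further in.

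The 5 highest ends were those of chromosomes 23, 36, 32, 27 and 34, and their rises were small. The end of chromosome 23 (65 peaks) summed to 940 and 947 CPM in mature and 1050 and 1047 CPM in reseeded libraries, a log2 fold of 0.15 (SE 0.014, edgeR adjusted p = 0.00023). Those of chromosomes 36 (0.09, SE 0.025, adjusted p = 0.0238), 32 (0.08, SE 0.017, adjusted p = 0.00508) and 27 (0.05, SE 0.012, adjusted p = 0.0145) were called higher here, and each of these 3 calls was lost under some of the alternatives run. The end of chromosome 34 was not called (0.04, SE 0.021, adjusted p = 0.143). In the 4 called ends the groups did not overlap, although each rise was small beside the losses described above.

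Even the highest end was not higher throughout. On chromosome 23 the last 500 kb and the window inside it were called lower (-0.35 and -0.52). Windows starting at 1, 1.5 and 2 Mb were called higher (1.40, 0.44 and 0.65), the first of them with 6 peaks that went from 31.5 and 38.3 CPM to 90.9 and 90.8 CPM. Of its 65 end peaks 25 were 2-fold or more higher and 9 were 2-fold or more lower.

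Chromosome 13 had many gains by peak and no called difference by sum. Its 69 end peaks had a median log2 fold of 0.89, with 34 gains and 6 losses of 2-fold or more. The sum over the end was 1313 and 1437 CPM in mature and 1311 and 1304 CPM in reseeded libraries, a log2 fold of -0.07 (SE 0.041, edgeR adjusted p = 0.166) that was 0.04 by library size alone. Its outermost window was called lower (-0.32), and the windows at 500 kb, 1 Mb and 1.5 Mb were called higher (0.16, 0.30 and 1.41). The next-to-last peak, chr13:63237899-63238399, alone had 418 and 522 CPM in mature and 128 and 115 CPM in reseeded libraries (a peak chosen after its values were seen). Chromosome 15, with 10 end peaks, had a median of 0.29 and a sum of -0.57 that was -0.46 by library size alone. Sums just below 0 beside medians above it were also found on chromosomes 4, 19, 21, 29 and 33, but by library size alone those 5 sums were above 0.

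The number of peaks at least 2-fold lower exceeded that of peaks at least 2-fold higher on 18 of the 38 ends, 19 had the opposite order and 1 had equal numbers. The 5 most crowded ends together held 1035 of the 3200 peaks (32.3%). Counted by chromosome, strong losses and strong gains were thus in the majority about equally often at the ends. Over the rest of the same chromosomes the order was not balanced. There strong gains outnumbered strong losses on every chromosome except chromosome 9 (18.3% gains and 20% losses). Relative to that background the ends leaned towards losses by this count as well, a difference that was not tested.

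Single end peaks moved far in either direction. The highest fold was at chr23:50326817-50327317, with 3 and 9 counts in mature A and B (0.348 and 1.46 CPM, the former at the floor) and 253 and 375 counts in reseeded A and B (14.8 and 15.4 CPM), a log2 fold of 4.20 (SE 0.271, edgeR adjusted p = 9.04e-16). The strongest of the 10 largest gains was at chr9:58430468-58430968, with 3.25 and 4.70 CPM in mature and 59.2 and 58.5 CPM in reseeded libraries, a log2 fold of 3.93 (SE 0.131, adjusted p = 5.28e-23). At chr32:37791320-37791820 the level went from 1.74 and 1.62 CPM to 23.3 and 23.7 CPM, a log2 fold of 3.79. In all 3 the groups lay far apart, and the first was near the floor in mature A. The rank and size of that first fold were not stable. It was 3.37 without mature A, 5.4 without mature B and 1.97 with loess offsets, under which the peaks on chromosomes 9 and 32 gave 3.97 and 2.99.

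The other 7 of the 10 largest gains had log2 folds between 3.33 and 3.70 and lay on chromosomes 9, 29, 30, 36 and 37. With loess offsets 3 of them were much smaller, at 1.42 (chr9:59594185-59594685), 1.14 (chr36:30761353-30761853) and 1.39 (chr30:38340278-38340778). Of the 10, 9 lay more than 1 Mb from the end. The exception was chr36:30761353-30761853, 10.7 kb from the end, which went from 0.696 and 1.62 CPM to 11.2 and 10.8 CPM, a log2 fold of 3.33 (SE 0.274). Chromosome 9, whose end was not called as a sum, held 3 of the 10.

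The lowest fold was at chr38:21466438-21466938, with 36.4 and 32.2 CPM in mature A and B and 0.934 and 0.861 CPM in reseeded A and B, a log2 fold of -5.26 (SE 0.168, edgeR adjusted p = 2.14e-23). At chr17:62846141-62846641 the level went from 19.4 and 21.2 CPM to 0.817 and 0.656 CPM, a log2 fold of -4.79 (SE 0.230). At chr14:60766624-60767124, 198 kb from the end, it went from 52.4 and 46.3 CPM to 2.04 and 2.42 CPM, a log2 fold of -4.45 (SE 0.128). These 3 closed almost fully, and in each the mature libraries were close to each other. Most of their neighbours did not fall 2-fold. Within 50 kb 4 of 13, 1 of 11 and 1 of 5 neighbours were at least 2-fold lower, against 23.2% of all end peaks.

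The other 7 of the 10 largest losses had log2 folds between -4.71 and -4.36. Of these, 3 lay in the run at the tip of chromosome 7, where 30 of 33 neighbours within 50 kb were at least 2-fold lower. Another 2, chr38:21105823-21106323 and chr38:21098396-21098896, lay together 2803 and 2811 kb from the end of chromosome 38, where 18 and 17 of 34 neighbours were. In these 5 peaks mature B was above mature A, for example at 54.7 against 35.4 CPM at chr38:21105823-21106323. The remaining pair, on chromosomes 22 and 7, had 1 of 9 and 0 of 9 such neighbours. With loess offsets the peak of chromosome 22 (chr22:58647056-58647556) went from -4.53 to -7.28.

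At some strong end peaks the difference was small and not called. At chr17:63133209-63133709 the level was 87.1 and 87.0 CPM in mature and 91.7 and 92.3 CPM in reseeded libraries, a log2 fold of 0.08 (SE 0.065, edgeR adjusted p = 0.251). At chr20:55083234-55083734, inside the most crowded end, it was 79.6 and 86.3 CPM against 80.8 and 84.3 CPM, a log2 fold of 0.00 (SE 0.067). At chr38:21142983-21143483 it was 62.5 and 52.8 CPM against 57.5 and 58.6 CPM, a log2 fold of -0.00 (SE 0.073), although 16 of its 27 neighbours within 50 kb were at least 2-fold lower. The groups overlapped at the last 2 of these. The other steady peaks, on chromosomes 18 (chr18:54207466-54207966) and 31 (chr31:37189531-37190031), had folds of -0.09 and -0.07. With loess offsets all 5 were called higher, with log2 folds of 0.51 (chromosome 17), 0.42 (chromosome 20), 0.27 (chromosome 18), 0.33 (chromosome 38) and 0.26 (chromosome 31).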

How the data were processed

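The authors deposited raw counts for 59081 peaks of 501 bp in 4 ATAC-seq libraries. Per the submitters' processing notes, Bowtie2 and MACS2 were used with the build CanFam3.1. Versions, settings, the treatment of duplicates, of reads that align to several places and of the Tn5 offset, and the rule for including a peak are not given in the sources used. Each of these can change counts near telomeres, where sequence is often repeated. Without molecular identifiers in the labels, counts can include PCR copies, and floors cover counting error only.

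Chromosomes were read from the sequence accessions, and positions are printed counting from 1. With edgeR 4.0.16 in R 4.3.3, the 59076 peaks passing filterByExpr were scaled with TMM factors and tested by the quasi-likelihood test without a block, reseeded against mature, with Benjamini-Hochberg adjustment over all of them. Counts were also summed in windows of 3 Mb and 500 kb with at least 5 peaks, counted back from the end of the outermost peak, and in distance bins of 500 kb over 38 chromosomes, each table with its own TMM factors and adjustment. An SE is the absolute log2 fold over the square root of F. The tests of peaks and of 3 Mb windows were also run on counts simulated with a single dispersion for all peaks. Differences shared by neighbouring peaks of a library were not simulated. That run therefore cannot tell how such differences affect the p-values of windows and bins.

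Alternatives were scaling by library size alone, by upper quartiles, by loess offsets or by DESeq2's factors, other filters, an adjusted p under 0.01, a test against a fold of 1.5, the Wald test of DESeq2 1.42.0, voom in limma 3.58.1, a replicate block, numbered chromosomes alone, ends of 1, 2 and 5 Mb, bins of 250 kb and 1 Mb, and each library or chromosome left out. With 1 library left in a group, it was assumed to vary like the pair of the other group.

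Named peaks are the 10 highest and 10 lowest folds among called end peaks whose mean count is 50 or more and whose groups do not overlap. They also include the 5 strongest end peaks, the 5 strongest steady ones (absolute log2 fold under 0.1, not called), the 5 highest and lowest ends and the 3 highest and lowest outermost peaks. Members and lists were chosen with earlier results of these data known. The last 100 kb, the runs, the crowding classes, the level classes, thinning, windows of 500 kb and leaving out chromosomes for the distance bins were added after seeing the data.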

Additional observations from a re-analysis of the deposited data

How the results depend on the processing

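Of 180 alternative values of the 13 counts and differences that the comparisons rest on, 154 were labelled the same. For counts that means within 1.5 times. For the difference of medians it means a shift smaller than the SD of its values for A with A and B with B. The other 26 moved in size, and the difference of medians stayed negative throughout. Alternatives of the share of counts were labelled the same by construction, since its exact p cannot go under 0.333. For the 36 chromosome ends, 416 of 468 kept their call or lack of one, 41 lost and 5 gained a call and 6 reversed. For the 36 named peaks, 461 of 468 kept theirs.

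Against a fold of 1.5, 1623 end peaks and 4 ends were called. In the last 1 Mb, 950 peaks were called, 170 at least 2-fold higher and 305 lower; in the last 2 Mb 352 were higher, and in the last 5 Mb 4238 were called and 953 were higher. The difference of medians, -0.35, was -0.47, -0.38 and -0.30 over 1, 2 and 5 Mb, -0.21 with loess offsets, -0.35 to -0.33 with 1 library left out and -0.38 (without chromosome 9) to -0.32 (without chromosome 20) with 1 chromosome left out. Ends called higher numbered 2 with DESeq2 size factors, 12 by library size alone, 1 by the DESeq2 Wald test and 1 to 5 with 1 library left out. Outermost windows of 500 kb called higher numbered 5 by library size alone and 2 to 6 with 1 library left out. With bins of 250 kb 11 of 12 were called, and with bins of 1 Mb 3 of 3.

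Folds changed sign by library size alone at the ends of chromosomes 4 (0.0936), 10 (0.0508), 19 (0.0839), 26 (0.0906), 29 (0.0957) and 33 (0.0103). Each of those ends was called with TMM factors, by library size alone or with both. The folds of chromosomes 11 (0.0566), 13 (0.0430) and 21 (0.0795) changed sign too, without a call under either scaling. With loess offsets the sign changed at the steady peaks of chromosomes 18 (0.27), 38 (0.33) and 31 (0.26), which were then called higher. The calls of chromosomes 10, 27, 32 and 36 were lost under several alternatives.

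The letters A and B did not pair the samples: the correlation of A minus B differences between groups was 0.0314 over all peaks and 0.0917 over end peaks. With the replicate block by library letter, 2657 end peaks and 25 ends were called (3 higher, 22 lower), and 5 of 6 distance bins, the bin from 2.5 to 3 Mb being lost (adjusted p = 0.0748). Thinned to the shallowest library, 2501 end peaks were called, 525 at least 2-fold higher and 774 lower. With 2 libraries a group, depth limits peaks near the floor, where a fold rests on few counts.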
